A study of Homo sapiens with 8 samples.

Results

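The genes described here are 10 chemokine and NF-kB feedback genes measured in LS174T, an established line of human colon adenocarcinoma cells. They are the chemokine ligands CXCL1, CXCL2, CXCL3, CXCL8 and CCL20, the chemokine receptor CCR2, the NF-kB inhibitors NFKBIA, TNFAIP3 and NKIRAS1, and the inhibitor of apoptosis BIRC3. The genes were chosen by name, and each was found through its Ensembl identifier among the 57736 genes of every file. All 10 were among the 22100 genes tested, which are those that reached 10 in 2 or more libraries. The list was drawn up with doxycycline responses in these libraries known, so the members' doxycycline fold changes and calls are given as a description, with no p-value.

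Both cell derivatives studied overexpress the Tet repressor and carry a short hairpin RNA that doxycycline switches on. In the WiNTRLINC1 line the hairpin targets WiNTRLINC1, a long non-coding RNA, and in the ASCL2 line it targets ASCL2, which encodes a transcription factor of the intestinal stem cell. The 4 groups, of 2 libraries each, were the WiNTRLINC1 line with doxycycline, the WiNTRLINC1 line untreated, the ASCL2 line with doxycycline and the ASCL2 line untreated. Treated cells had 1 ug/ml doxycycline for 3 days and untreated cells grew for 3 days without it. Clones of the WiNTRLINC1 line were screened by RT-PCR, per the design text, and the ASCL2 line came from earlier work. Doxycycline-treated cells without a hairpin were not analysed here, so the drug and the hairpin cannot be told apart. The lines are named by the sample titles, while the genotype field gives, for each of the 8 samples, the opposite target. The labels do not say that replicates came from separate cultures, so a p-value here takes in no more than the variation among these libraries, possibly technical.

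Chemokines are small secreted proteins that attract leukocytes by binding receptors on them. The CXC ligands among these genes attract mainly neutrophils, CCL20 attracts cells that carry CCR6, and CCR2 is best known as the receptor of CCL2 on monocytes. NF-kB is a family of transcription factors held in the cytoplasm by IkB proteins until kinases mark these for degradation. Among its target genes are many chemokines and also its own inhibitors, which form negative feedback loops. Colon epithelium makes several of these chemokines during infection and inflammation.

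Each value is the authors' read count per gene after scaling per library, rounded to a whole number. The deposited totals were 21524463 to 22941231 per library, and the scaling factor, where it could be estimated (7 of 8 libraries), was 0.798 to 1.19. ASCL2 had 805 and 697 with doxycycline against 2540 and 2034 untreated in the WiNTRLINC1 line. It had 532 and 586 with doxycycline against 2855 and 3373 untreated in the ASCL2 line. ASCL2 was thus lower with doxycycline in both lines, which does not settle which label is right. All 10 colon epithelium markers on the list used were among the genes tested, led by the keratin KRT8. With doxycycline 2 of them were called higher and 3 lower in the WiNTRLINC1 line, against 9.54% and 9.03% of all genes tested. In the ASCL2 line 7 were called lower, against 2809 of all 22100 genes called lower and 26.6% called in either direction. A call is defined below. These markers' part in the members' values was not tested. Their summed value was 104660 to 105175 with doxycycline and 106894 to 111109 untreated in the WiNTRLINC1 line, and 136804 to 149278 with doxycycline and 155195 to 167713 untreated in the ASCL2 line. The 12 leukocyte markers summed to 86 to 107 with doxycycline and 72 to 132 untreated in the WiNTRLINC1 line, and to 91 to 137 with doxycycline and 125 to 136 untreated in the ASCL2 line. Of the 12, 5 stayed under 10 throughout and LYZ led the list, while PTPRC, which marks all leukocytes, had 5 to 13. The 7 fibroblast markers summed to 100 to 143 with doxycycline and 102 to 114 untreated in the WiNTRLINC1 line, and to 189 to 196 with doxycycline and 310 to 313 untreated in the ASCL2 line, and the endothelial markers stayed between 14 and 43 in all. In bulk libraries a change in the share of cells that express a gene and a change in RNA per cell cannot be told apart.

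The promoters of the CXC ligands are shown because these neighbours on chromosome 4 share an NF-kB type sequence close to the start site. The sequences are the 250 bases upstream of the RefSeq start site in GRCh38.p14, 5′ to 3′ on the strand of the gene, and capitals mark the match to the motif GGGAATTTCC, or GGAATTTCC in CXCL8. They lie at chr4:73869143-73869392 (+ strand) for CXCL1, chr4:74099196-74099445 (- strand) for CXCL2, chr4:74038690-74038939 (- strand) for CXCL3 and chr4:73740319-73740568 (+ strand) for CXCL8.
CXCL1: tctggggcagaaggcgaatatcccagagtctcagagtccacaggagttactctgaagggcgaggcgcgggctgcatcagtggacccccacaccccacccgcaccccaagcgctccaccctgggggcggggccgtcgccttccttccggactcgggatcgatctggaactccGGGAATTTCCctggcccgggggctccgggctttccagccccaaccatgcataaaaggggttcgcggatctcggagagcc
CXCL2: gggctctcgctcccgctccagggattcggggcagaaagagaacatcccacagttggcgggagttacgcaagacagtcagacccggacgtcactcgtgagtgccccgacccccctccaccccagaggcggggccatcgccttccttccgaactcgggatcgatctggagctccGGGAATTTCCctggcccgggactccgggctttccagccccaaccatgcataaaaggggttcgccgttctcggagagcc
CXCL3: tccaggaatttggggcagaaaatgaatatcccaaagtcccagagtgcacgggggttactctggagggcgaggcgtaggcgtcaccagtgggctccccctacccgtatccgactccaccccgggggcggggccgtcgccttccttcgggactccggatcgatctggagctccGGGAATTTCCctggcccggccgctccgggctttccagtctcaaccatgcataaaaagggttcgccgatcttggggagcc
CXCL8: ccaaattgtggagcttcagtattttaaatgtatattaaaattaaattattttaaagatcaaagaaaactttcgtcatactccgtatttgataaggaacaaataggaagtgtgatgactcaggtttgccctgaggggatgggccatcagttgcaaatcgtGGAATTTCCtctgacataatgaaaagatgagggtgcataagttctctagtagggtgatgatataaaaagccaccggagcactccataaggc
The match to GGGAATTTCC lies 79 to 70 bases upstream of the start in CXCL1 and CXCL3, and 78 to 69 bases upstream in CXCL2. The match to GGAATTTCC in CXCL8 lies 91 to 83 bases upstream. Among 35116 RefSeq promoters, searched on both strands, 0.142% hold GGGAATTTCC and 0.413% hold GGAATTTCC, which is contained in it. The longer motif is the run of the form GGGNNNNNCC that the CXCL1, CXCL2, CXCL3 and NFKBIA promoters share, read from these sequences. The motif TGANTCA, of the AP-1 type, occurs in the CXCL8 promoter and in that of CCR2, and in 6.57% of all promoters. In global alignments the CXCL1 and CXCL3 promoters were 81.4% identical, CXCL2 and CXCL3 73.3%, and CXCL1 and CXCL2 71.4%. CXCL8 was 44.7% to 47.6% identical to the other 3. A match describes letters only and is no evidence of binding.

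For the other members, windows of 60 bases around a motif match show how far this kind of sequence extends in the list. Capitals mark a match to GGGNNNNNCC in CCL20, to GGGAATTTCC on the opposite strand in NFKBIA, and to GGAAATCCCC in TNFAIP3 and BIRC3. The windows lie at chr2:227813736-227813795 (+ strand) for CCL20, chr14:35404797-35404856 (- strand) for NFKBIA, chr6:137867178-137867237 (+ strand) for TNFAIP3 and chr11:102317259-102317318 (+ strand) for BIRC3, in GRCh38.p14 as given by RefSeq.
CCL20: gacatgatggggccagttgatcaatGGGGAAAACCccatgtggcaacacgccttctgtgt
NFKBIA: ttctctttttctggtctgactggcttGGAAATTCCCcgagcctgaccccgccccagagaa
TNFAIP3: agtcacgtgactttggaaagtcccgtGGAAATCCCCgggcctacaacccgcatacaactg
BIRC3: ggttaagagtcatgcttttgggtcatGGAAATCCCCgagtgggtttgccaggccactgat
The matches lie 81 to 72 bases upstream of the start in CCL20 and NFKBIA, 55 to 46 in TNFAIP3 and 199 to 190 in BIRC3. GGAAATCCCC, the run of that form (on the opposite strand) shared by TNFAIP3 and BIRC3, occurs in 0.108% of all promoters. The loose motif GGGNNNNNCC, which overlaps all the other NF-kB type matches of 10 letters, occurs in 54.4% of all promoters and in 9 of the 10 members, CCR2 being without it in this window. NKIRAS1 has no match to the other NF-kB type motifs in the windows of either of its 2 start sites.

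With doxycycline, chemokine genes stood several-fold higher in the ASCL2 line. In that line 9 of the 10 genes were called higher, against 13.9% of all genes tested called higher and 26.6% called in either direction. NFKBIA was the gene not called. In the WiNTRLINC1 line 3 were called higher (CXCL1, CCR2 and NKIRAS1), against 9.54% of all genes tested, and 1 was called lower (CCL20), against 9.03%. A call means a Benjamini-Hochberg adjusted p under 0.05 over all 22100 genes in limma's moderated test on log2(value + 1). Both treated libraries lay above both untreated ones for 9 genes in the ASCL2 line, which also holds for 30.8% of all genes tested. They lay above for 4 genes and below for 1 in the WiNTRLINC1 line, against 28.2% and 26.5% of all genes tested. Because the list was drawn up from such responses, nothing is read from these counts.

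**Figure D1:**
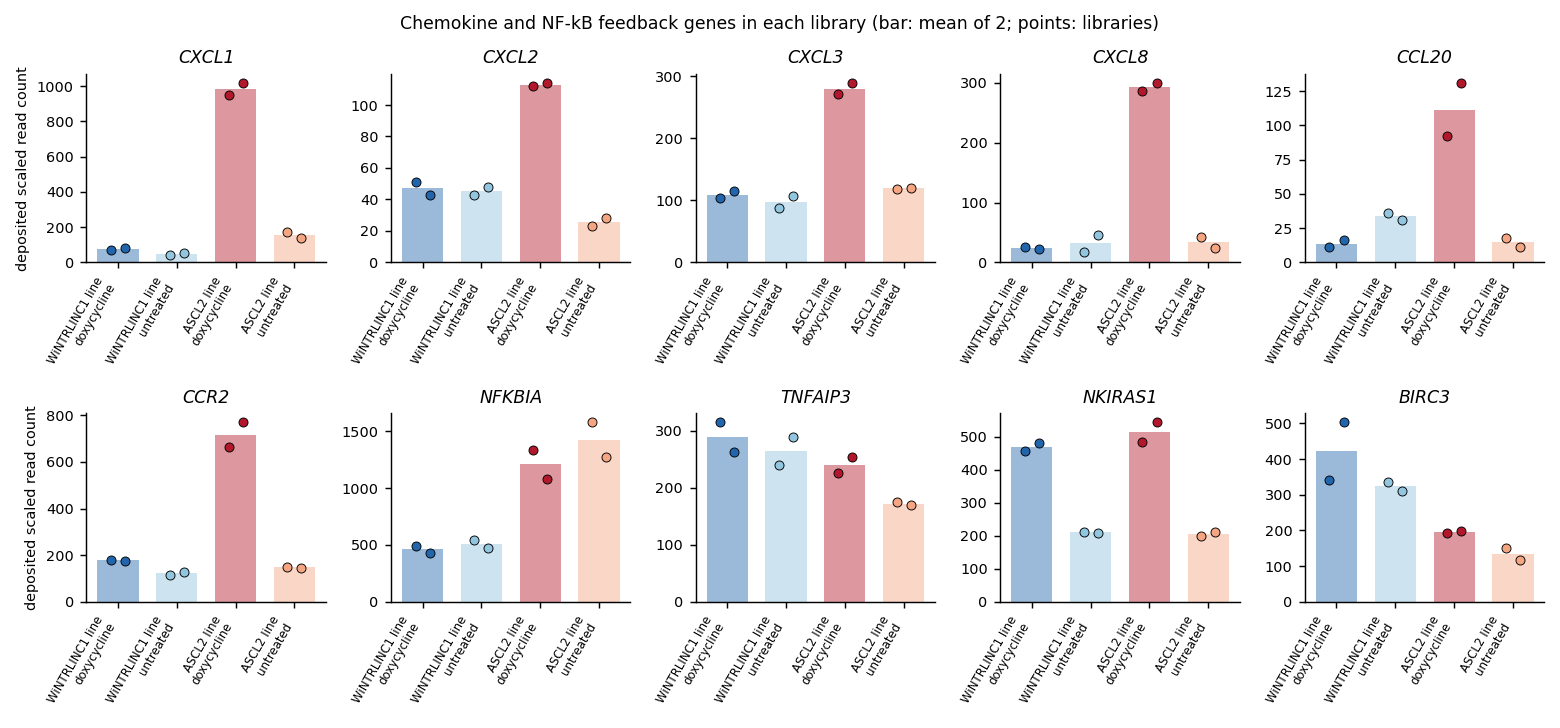
Deposited scaled read counts (y axis, a separate linear scale for each gene) of the 10 genes in the 4 groups (x axis); points are the 2 libraries of a group and bars their mean. CXCL1, CXCL2, CXCL3, CXCL8, CCL20 and CCR2 are highest in the doxycycline-treated ASCL2 line, and NKIRAS1 is higher with doxycycline in both lines.

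CXCL1 (ENSG00000163739) encodes a ligand of the neutrophil receptor CXCR2. It had 72 and 82 with doxycycline against 44 and 51 untreated in the WiNTRLINC1 line, and 952 and 1018 with doxycycline against 174 and 138 untreated in the ASCL2 line. The treated libraries lay above the untreated ones in both lines, and all 4 libraries of the ASCL2 line lay above all 4 of the WiNTRLINC1 line. On the log2 scale the fold change was 0.69 ± 0.17 (SE) in the WiNTRLINC1 line, or 1.61-fold, and 2.66 ± 0.17 in the ASCL2 line, or 6.32-fold. The WiNTRLINC1 line's call was lost without its doxycycline replicate 2 (log2 0.59) and without its untreated replicate 1 (log2 0.58), and also without the filter on low values, without the mean-variance trend or with only the libraries compared in the fit.

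CXCL2 (ENSG00000081041) and CXCL3 (ENSG00000163734) are close relatives of CXCL1 that bind the same receptor. CXCL2 had 51 and 43 with doxycycline against 43 and 48 untreated in the WiNTRLINC1 line, and 112 and 114 with doxycycline against 23 and 28 untreated in the ASCL2 line. CXCL3 had 103 and 115 with doxycycline against 88 and 107 untreated in the WiNTRLINC1 line, and 271 and 289 with doxycycline against 118 and 120 untreated in the ASCL2 line. For both genes the groups overlapped in the WiNTRLINC1 line and did not overlap in the ASCL2 line. For CXCL2 the log2 fold change was 0.04 ± 0.25 in the WiNTRLINC1 line and 2.11 ± 0.25 in the ASCL2 line, or 4.32-fold. That of CXCL3 was 0.16 ± 0.17 in the WiNTRLINC1 line and 1.23 ± 0.17 in the ASCL2 line, or 2.34-fold.

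These 3 genes have stretches of identical sequence between which short reads cannot be assigned with certainty. Of the 50-base stretches of each gene's transcripts, 4.81% in CXCL1, 12.5% in CXCL2 and 6.01% in CXCL3 also occur in another gene, always one of the 3. A sum over the 3 genes is free of that assignment only if each shared read was counted once, which is not known. This sum was 226 and 240 with doxycycline against 175 and 206 untreated in the WiNTRLINC1 line. The sum was 1335 and 1421 with doxycycline against 315 and 286 untreated in the ASCL2 line. The ratio of means was 1.22 in the WiNTRLINC1 line and 4.59 in the ASCL2 line. CXCL1 made up 31.9% and 34.2% of the sum with doxycycline against 25.1% and 24.8% untreated in the WiNTRLINC1 line, and 71.3% and 71.6% against 55.2% and 48.3% in the ASCL2 line. These are shares of counts and are not corrected for the length of the genes.

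CXCL8 (ENSG00000169429) encodes interleukin-8, which binds both CXCR1 and CXCR2 on neutrophils. It had 26 and 22 with doxycycline against 17 and 46 untreated in the WiNTRLINC1 line, and 287 and 300 with doxycycline against 43 and 24 untreated in the ASCL2 line. The untreated values are low and differ between replicates, and the groups overlapped in the WiNTRLINC1 line only. The log2 fold change was -0.22 ± 0.39 in the WiNTRLINC1 line and 3.15 ± 0.39 in the ASCL2 line, or 8.88-fold. This was the highest fold change among the 10 genes in the ASCL2 line. In the WiNTRLINC1 line the value turned to 0.47 without untreated replicate 2. No 50-base stretch of CXCL8 occurs in another gene.

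CCL20 (ENSG00000115009) encodes the ligand of CCR6 on lymphocytes and dendritic cells. It had 11 and 16 with doxycycline against 36 and 31 untreated in the WiNTRLINC1 line, and 92 and 131 with doxycycline against 18 and 11 untreated in the ASCL2 line. Treated libraries lay below the untreated ones in the WiNTRLINC1 line and above them in the ASCL2 line. For CCL20 this gave a log2 fold change of -1.27 ± 0.36 in the WiNTRLINC1 line, or 2.41-fold lower, and 2.88 ± 0.36 in the ASCL2 line, or 7.34-fold higher. The lower call was lost on leaving out the WiNTRLINC1 line's doxycycline replicate 1 (log2 -1.02), its untreated replicate 1 (log2 -1.16) or its untreated replicate 2 (log2 -1.37), and also without the filter or the trend.

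CCR2 (ENSG00000121807) encodes a receptor known for guiding monocytes out of the bone marrow and into inflamed tissue. It had 181 and 174 with doxycycline against 116 and 128 untreated in the WiNTRLINC1 line, and 664 and 770 with doxycycline against 149 and 145 untreated in the ASCL2 line. Treated and untreated libraries did not overlap in either line. For CCR2 the log2 fold change was 0.54 ± 0.14 in the WiNTRLINC1 line, or 1.45-fold, and 2.27 ± 0.14 in the ASCL2 line, or 4.84-fold. The WiNTRLINC1 line's call was lost without doxycycline replicate 1 (log2 0.51), doxycycline replicate 2 (log2 0.57) or untreated replicate 1 (log2 0.47). Of the 7 leukocyte markers tested, limma called 0 with doxycycline in either line, where 2 had an unadjusted p under 0.05 in the WiNTRLINC1 line and 0 in the ASCL2 line. Among all genes tested, 18.6% were called in the WiNTRLINC1 line and 26.6% in the ASCL2 line. Of the 50-base stretches of CCR2, 0.423% also occur in another gene.

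The 3 NF-kB inhibitors differed among themselves. NFKBIA (ENSG00000100906) encodes IkB-alpha, which keeps NF-kB in the cytoplasm and is itself an NF-kB target. It had 494 and 432 with doxycycline against 543 and 473 untreated in the WiNTRLINC1 line, and 1338 and 1078 with doxycycline against 1578 and 1271 untreated in the ASCL2 line. Treated and untreated groups overlapped within either line, and each line's values kept well apart from the other's. The log2 fold change was -0.13 ± 0.13 in the WiNTRLINC1 line and -0.24 ± 0.13 in the ASCL2 line, and neither was called.

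TNFAIP3 (ENSG00000118503) encodes A20, a ubiquitin-editing enzyme that shuts off NF-kB signalling. It had 315 and 263 with doxycycline against 241 and 289 untreated in the WiNTRLINC1 line, and 226 and 255 with doxycycline against 175 and 169 untreated in the ASCL2 line. The groups overlapped in the WiNTRLINC1 line but not in the ASCL2 line. The log2 fold change was 0.12 ± 0.15 in the WiNTRLINC1 line and 0.48 ± 0.15 in the ASCL2 line, or 1.39-fold. The ASCL2 line's call was lost without any 1 of its 4 libraries, at log2 0.57 and 0.39 without doxycycline replicates 1 and 2, and 0.50 and 0.45 without untreated replicates 1 and 2, and also without the filter or the trend. An antisense gene overlaps 1.88% of its exon bases and had values of 1 to 10.

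NKIRAS1 (ENSG00000197885) encodes a small Ras-like protein that slows the degradation of IkB proteins. It had 456 and 481 with doxycycline against 212 and 208 untreated in the WiNTRLINC1 line, and 485 and 544 with doxycycline against 200 and 211 untreated in the ASCL2 line. The 2 lines had nearly the same values in each condition, and treated and untreated libraries did not overlap. Its log2 fold change was 1.15 ± 0.12 in the WiNTRLINC1 line, or 2.22-fold, and 1.32 ± 0.12 in the ASCL2 line, or 2.49-fold. NKIRAS1 is uncertain as a gene count, because 453 of its exon bases overlap those of RPL15, a ribosomal protein gene on the opposite strand, and whether counting used strand is not given in the sources used here. RPL15 had 14560 and 15935 with doxycycline against 14017 and 13174 untreated in the WiNTRLINC1 line, and 13470 and 15462 with doxycycline against 18040 and 17733 untreated in the ASCL2 line. In the ASCL2 line RPL15 therefore lay on the other side, at log2 -0.31 (limma, adjusted p = 0.0102), and in the WiNTRLINC1 line at log2 0.16 (adjusted p = 0.187). RPL15 was 31.9 and 33.1 times NKIRAS1 with doxycycline against 66.1 and 63.3 times untreated in the WiNTRLINC1 line, and 27.8 and 28.4 times against 90.2 and 84.0 times in the ASCL2 line.

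BIRC3 (ENSG00000023445) encodes cIAP2, a ubiquitin ligase that takes part in TNF receptor signalling and restrains the non-canonical NF-kB pathway. It had 342 and 503 with doxycycline against 337 and 310 untreated in the WiNTRLINC1 line, and 192 and 197 with doxycycline against 151 and 117 untreated in the ASCL2 line. Treated libraries lay above untreated ones in both lines, narrowly so in the WiNTRLINC1 line. The log2 fold change was 0.36 ± 0.18 in the WiNTRLINC1 line, which was not called, and 0.55 ± 0.18 in the ASCL2 line, or 1.46-fold. In the ASCL2 line the call was lost without doxycycline replicate 1 (log2 0.56), doxycycline replicate 2 (log2 0.53) or untreated replicate 2 (log2 0.36), and also without the filter or the trend. Without its doxycycline replicate 1 the WiNTRLINC1 line was called, at log2 0.64. The relative BIRC2 shares 0.144% of the 50-base stretches of BIRC3.

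**Figure D2:**
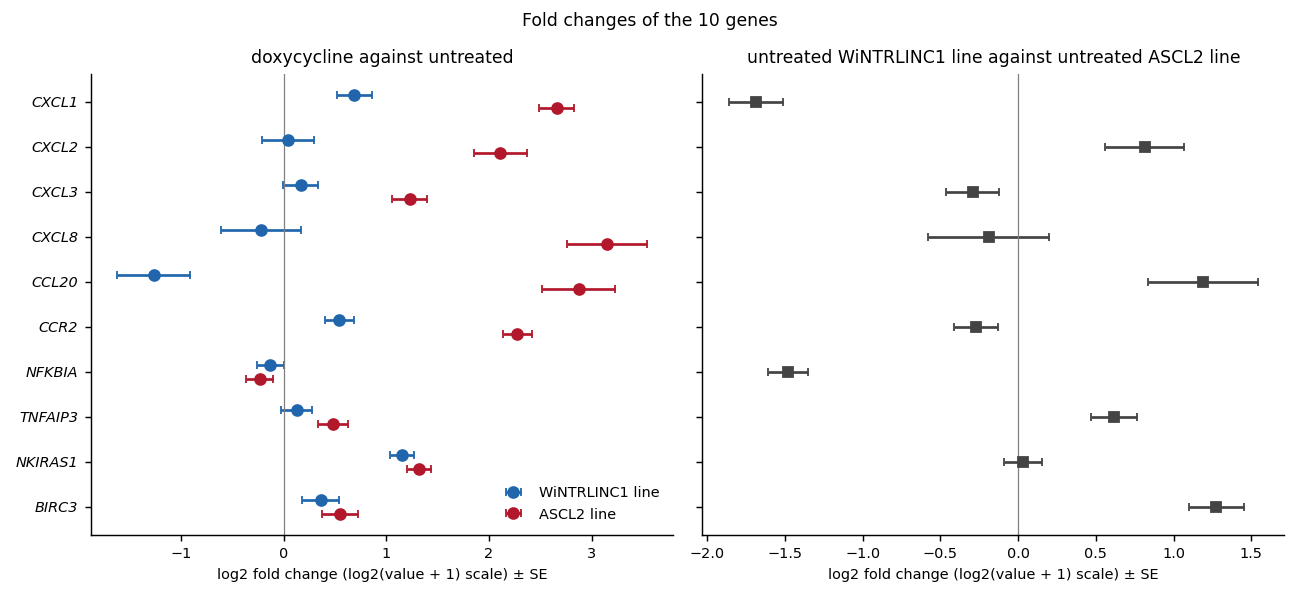
Log2 fold changes with their standard errors (x axis, log2(value + 1) scale) of the 10 genes (y axis) for doxycycline against untreated in both lines (left) and for the untreated WiNTRLINC1 line over the untreated ASCL2 line (right). CCL20 lies at -1.27 in the WiNTRLINC1 line and at 2.88 in the ASCL2 line, and NKIRAS1 lies at 1.15 and 1.32.

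The difference between the lines' responses is the doxycycline fold change of the WiNTRLINC1 line minus that of the ASCL2 line. It was called lower for 6 genes, against 7.60% of all genes tested called lower and 15.0% called in either direction. These were the 5 ligands and CCR2. The log2 difference was -1.97 for CXCL1, -2.07 for CXCL2, -1.06 for CXCL3, -3.37 for CXCL8, -4.14 for CCL20 and -1.74 for CCR2, the CXCL8 call being lost without the trend. It was 0.10 for NFKBIA, -0.35 for TNFAIP3, -0.16 for NKIRAS1 and -0.19 for BIRC3, none of them called. The 4 genes with no called difference are thus the inhibitors and BIRC3. The median over the 10 genes was -1.40, beside -0.0056 over all genes tested, and this too follows from how the list was drawn up.

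Before any doxycycline, the lines already differed in 6 of the 10 genes, a share close to the 55.2% of all genes tested that were called. Set against the ASCL2 line, the untreated WiNTRLINC1 line had 4 genes called higher, against 25.7% of all genes, and 2 lower, against 29.5%. The untreated ASCL2 libraries are also the baseline of the response known when the list was drawn up, so these values are not independent of it. Both libraries of the WiNTRLINC1 line lay above both of the ASCL2 line for 4 genes and below them for 4, against 35.7% and 40.0% of all genes tested.

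CXCL1 and NFKBIA were the genes lower in the untreated WiNTRLINC1 line. CXCL1 averaged 47.5 ± 4.95 in the untreated WiNTRLINC1 line and 156 ± 25.5 in the untreated ASCL2 line (SD, n = 2 each), a log2 difference of -1.69 ± 0.17, or 3.22-fold lower (limma, adjusted p = 1.03e-06). NFKBIA averaged 508 ± 49.5 in the untreated WiNTRLINC1 line and 1425 ± 217 in the untreated ASCL2 line (SD, n = 2 each), a log2 difference of -1.48 ± 0.13, or 2.79-fold lower (limma, adjusted p = 1.97e-07). For both genes the groups did not overlap.

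BIRC3, TNFAIP3, CCL20 and CXCL2 were the genes higher in the untreated WiNTRLINC1 line, again without overlap. The log2 difference was 1.28 ± 0.18 for BIRC3, or 2.42-fold (limma, adjusted p = 2.46e-05), and 0.61 ± 0.15 for TNFAIP3, or 1.53-fold (adjusted p = 0.00265). It was 1.19 ± 0.36 for CCL20, or 2.28-fold (adjusted p = 0.0105), and 0.82 ± 0.25 for CXCL2, or 1.76-fold (adjusted p = 0.0136). The CCL20 call was lost without untreated replicate 2 of the ASCL2 line (log2 0.86, adjusted p = 0.093) or untreated replicate 1 of the WiNTRLINC1 line (log2 1.08, adjusted p = 0.0655), with adjusted p between 0.0047 and 0.093 over all 17 alternatives. The CXCL2 call was lost without untreated replicate 1 of the ASCL2 line (log2 0.68, adjusted p = 0.0753) or untreated replicate 2 of the WiNTRLINC1 line (log2 0.74, adjusted p = 0.0724), with adjusted p between 0.00425 and 0.0753 over all 17. The other 4 genes were not called, with log2 differences of -0.29 for CXCL3 (adjusted p = 0.165), -0.19 for CXCL8 (adjusted p = 0.701, turning to 0.50 without untreated replicate 1 of the WiNTRLINC1 line and to 0.22 without untreated replicate 1 of the ASCL2 line), -0.27 for CCR2 (adjusted p = 0.121) and 0.03 for NKIRAS1 (adjusted p = 0.84).

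Levels can be compared between genes only per length, here as the group's mean value per 1000 exon bases. In the untreated WiNTRLINC1 line the order of levels was NFKBIA (214), NKIRAS1 (60.5), TNFAIP3 (52.5), CXCL3 (43.9), BIRC3 (43.0), CXCL1 (36.7), CCR2 (32.7), CXCL2 (30.3), CCL20 (21.0) and CXCL8 (13.9). The ranges of the 2 libraries overlapped between the neighbours TNFAIP3 and CXCL3, CXCL3 and BIRC3, CXCL1 and CCR2, CCR2 and CXCL2, and CCL20 and CXCL8. In the untreated ASCL2 line NFKBIA (600) also led, followed by CXCL1 (120), NKIRAS1 (59.2) and CXCL3 (53.6), and CCL20 was lowest (9.10), its range overlapping that of CXCL8 (14.7). In the doxycycline-treated ASCL2 line CXCL1 led with 760, above NFKBIA with 509 and CCR2 with 192, while CXCL8 (129) and CXCL3 (126) overlapped. In the doxycycline-treated WiNTRLINC1 line NFKBIA (195) and NKIRAS1 (135) were highest and CCL20 (8.47) was lowest, its range overlapping that of CXCL8 (10.6).

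The CXC ligands lie in a cluster on chromosome 4, and the values of its other genes and nearest neighbours are given beside them. The protein-coding genes run in the order AFP, AFM, RASSF6, CXCL8, CXCL6, PF4V1, CXCL1, PF4, PPBP, CXCL5, CXCL3, CXCL2, MTHFD2L, EPGN and EREG. The other chemokine genes of the cluster, CXCL6, PF4V1, PF4, PPBP and CXCL5, had values of 0 to 11 in all libraries. EREG, which encodes the EGF receptor ligand epiregulin, had 1277 and 1464 with doxycycline against 1159 and 1148 untreated in the WiNTRLINC1 line, and 4274 and 4797 with doxycycline against 839 and 1068 untreated in the ASCL2 line. It rose in the ASCL2 line by 2.26 ± 0.11 on the log2 scale (limma, adjusted p = 4.54e-09), and the WiNTRLINC1 line's 0.25 was not called (adjusted p = 0.146). RASSF6, on the other side of CXCL8, had 92 and 88 with doxycycline against 112 and 156 untreated in the WiNTRLINC1 line, and 319 and 308 with doxycycline against 113 and 131 untreated in the ASCL2 line. It rose in the ASCL2 line by 1.36 ± 0.18 (limma, adjusted p = 7.28e-05), and the WiNTRLINC1 line's -0.55 was not called (adjusted p = 0.0501). The difference of responses for RASSF6 was -1.91 (adjusted p = 0.000139). MTHFD2L, between CXCL2 and EREG, was not called, at log2 0.30 in the WiNTRLINC1 line (adjusted p = 0.0642) and 0.12 in the ASCL2 line (adjusted p = 0.442). The run listed stops at EREG, and whether the genes along it share a pattern was not tested. AREG, also on chromosome 4, was at log2 1.67 in the ASCL2 line (limma, adjusted p = 2.73e-05) and 0.43 in the WiNTRLINC1 line (adjusted p = 0.166). BTC, on the same chromosome, was at 0.10 (adjusted p = 0.757) and 0.99 (adjusted p = 0.00179) in the same order. All these genes were looked up after the members' values had been seen.

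**Figure D3:**
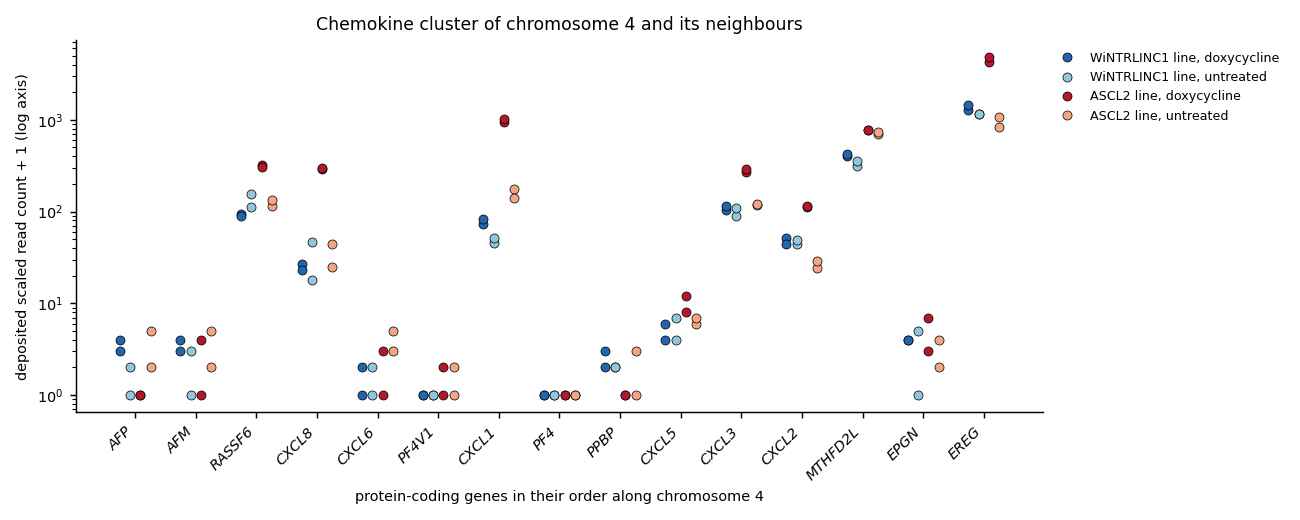
Deposited scaled read counts plus 1 (y axis, log scale) of the protein-coding genes around the CXC ligands in their order on chromosome 4 (x axis); each point is a library, coloured by group. EREG reaches 4797 in the doxycycline-treated ASCL2 line, and CXCL6, PF4V1, PF4, PPBP and CXCL5 stay at 11 or below.

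CCRL2 lies near CCR2 on chromosome 3. CCRL2, an atypical receptor that binds chemerin and does not signal, had 177 and 135 with doxycycline against 212 and 161 untreated in the WiNTRLINC1 line, and 860 and 854 with doxycycline against 418 and 412 untreated in the ASCL2 line. It rose in the ASCL2 line by 1.04 ± 0.15 on the log2 scale (limma, adjusted p = 0.000159), and the difference of responses, -1.30, was called (adjusted p = 0.000804).

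Most genes of the wider chemokine system stayed under the filter. The counts below stand beside 18.6% of all genes tested called in the WiNTRLINC1 line and 26.6% in the ASCL2 line, in either direction. Of 31 other ligand genes found in the files, 10 were tested: 1 was called higher in the WiNTRLINC1 line and 0 in either direction in the ASCL2 line by limma, where 1 had an unadjusted p under 0.05. CXCL16, a ligand with a membrane-bound form, had 1027 and 1030 with doxycycline against 729 and 701 untreated in the WiNTRLINC1 line, and rose by 0.52 ± 0.084 (limma, adjusted p = 0.000461). In the ASCL2 line it had 1090 and 1095 with doxycycline against 965 and 1018 untreated (log2 0.14, adjusted p = 0.253). Of 22 other receptor genes, 6 were tested, and 2 were called in the ASCL2 line, both higher, CCRL2 among them. Limma called 0 of the 6 in the WiNTRLINC1 line, and 1 had an unadjusted p under 0.05. The receptors of the ligands, looked at for their role, were near 0: CXCR1 had 1 to 4, CXCR2 0 to 10 and CCR6 0 to 3, and CCL2, the ligand of CCR2, had 0 to 2.

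Of 11 NF-kB subunits and other IkB proteins, all tested, 2 rose and 4 fell in the ASCL2 line. The genes that rose, RELB and NFKB2, encode the subunits of the non-canonical pathway. RELB, named after its values were seen, had 127 and 97 with doxycycline against 131 and 112 untreated in the WiNTRLINC1 line, and 336 and 373 with doxycycline against 247 and 194 untreated in the ASCL2 line (log2 0.69 ± 0.18, limma, adjusted p = 0.0101). Among those that fell was NFKB1, which encodes the p50 precursor, with 1598 and 1589 with doxycycline against 1942 and 2051 untreated (log2 -0.32 ± 0.077, adjusted p = 0.00576, or 0.0533 without the trend). BCL3, an IkB protein of the nucleus, had 334 and 287 with doxycycline against 586 and 539 untreated in the ASCL2 line (log2 -0.86 ± 0.14, adjusted p = 0.000402). NFKBID was at -0.51 ± 0.15 (adjusted p = 0.0225), a call lost without any 1 of the 4 libraries of the ASCL2 line, at -0.52 and -0.49 (doxycycline replicates 1 and 2) and at -0.52 and -0.49 (untreated replicates 1 and 2). In the WiNTRLINC1 line limma called 0 of the 11, and 3 had an unadjusted p under 0.05, all lower. BCL3 was also lower in the untreated WiNTRLINC1 line than in the untreated ASCL2 line, by 3.06-fold (adjusted p = 1.95e-07).

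Of 18 tested kinases and adaptors upstream of NF-kB, 3 rose and 4 fell in the WiNTRLINC1 line, and 5 rose and 2 fell in the ASCL2 line. Called in either direction were 18.6% and 26.6% of all genes tested in these lines. MAP3K14, which encodes the kinase NIK of the non-canonical pathway, had 293 and 265 with doxycycline against 310 and 301 untreated in the WiNTRLINC1 line, and 481 and 526 with doxycycline against 206 and 199 untreated in the ASCL2 line. It rose in the ASCL2 line by 1.31 ± 0.12 (limma, adjusted p = 2.26e-06), and the difference of responses was -1.44 (adjusted p = 4.82e-05). RIPK2, the kinase that relays NOD receptors, rose by 0.96 ± 0.11 in the ASCL2 line (adjusted p = 1.76e-05). In the WiNTRLINC1 line RIPK2 was at 0.34 ± 0.11 (adjusted p = 0.046), a call lost without doxycycline replicate 1 or 2 of either line (log2 0.34 in each case) and without untreated replicate 1 (0.32) or 2 (0.36) of the WiNTRLINC1 line, and also without the filter or the trend, with quantile normalization or with only the libraries compared. TRAF3, which restrains NIK, rose by 0.50 ± 0.092 in the WiNTRLINC1 line (adjusted p = 0.00148, or 0.0566 without the trend). In the ASCL2 line TRAF3 was at 0.32 ± 0.092 (adjusted p = 0.0187), a call lost without doxycycline replicate 1 (0.32), doxycycline replicate 2 (0.32) or untreated replicate 2 (0.18), and also without the filter or the trend. MYD88, the adaptor of Toll-like and interleukin-1 receptors, fell by 0.42 in the WiNTRLINC1 line (adjusted p = 0.00218, or 0.0604 without the trend) and was at 0.00 in the ASCL2 line (adjusted p = 0.993). IKBKB, which encodes the kinase of IkB-alpha, was not called with doxycycline in either line and was 1.99-fold higher in the untreated WiNTRLINC1 line than in the untreated ASCL2 line (adjusted p = 1.21e-07).

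Of 14 tested receptors that signal to NF-kB, 3 rose and 1 fell in the WiNTRLINC1 line, and 4 rose and 1 fell in the ASCL2 line. Among all genes tested, 18.6% and 26.6% were called in these lines. TNFRSF1B, the second TNF receptor, had 5132 and 5006 with doxycycline against 2410 and 2577 untreated in the WiNTRLINC1 line, and 2071 and 1850 with doxycycline against 1008 and 810 untreated in the ASCL2 line. It rose by 1.02 ± 0.099 in the WiNTRLINC1 line (limma, adjusted p = 4.45e-06) and by 1.11 ± 0.099 in the ASCL2 line (adjusted p = 1.39e-06). TNFRSF11A, the receptor RANK, rose in the ASCL2 line by 0.60 ± 0.084 (adjusted p = 0.000107) and was at 0.11 in the WiNTRLINC1 line (adjusted p = 0.408). IL17RC, a subunit of the interleukin-17 receptor, was at -0.47 ± 0.13 in the WiNTRLINC1 line (adjusted p = 0.018), a call lost without doxycycline replicate 2 (-0.35) or untreated replicate 1 (-0.34), and also without the filter or the trend or with only the libraries compared.

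Of 14 tested ubiquitin editors and inhibitors of apoptosis other than the members, 3 rose and 1 fell in the WiNTRLINC1 line. In the ASCL2 line 5 rose and 1 fell. The shares of all genes tested called in either direction were 18.6% and 26.6% in the same order. RNF11 and TNIP2, partners of A20, rose in both. RNF11 rose by 0.41 ± 0.083 in the WiNTRLINC1 line (limma, adjusted p = 0.003) and by 0.47 ± 0.083 in the ASCL2 line (adjusted p = 0.000716), and TNIP2 by 0.56 ± 0.088 (adjusted p = 0.000365) and 0.44 ± 0.088 (adjusted p = 0.00168) in the same lines. BIRC5, which encodes survivin, a protein of dividing cells, had 3671 and 4004 with doxycycline against 2848 and 2798 untreated in the WiNTRLINC1 line, and 1616 and 1675 with doxycycline against 2814 and 2457 untreated in the ASCL2 line. It rose in the WiNTRLINC1 line by 0.44 ± 0.082 (adjusted p = 0.00154, or 0.0593 without the trend) and fell in the ASCL2 line, at -0.68 ± 0.082 (adjusted p = 2.9e-05).

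Of 21 tested NF-kB target genes other than the members, 3 rose and 3 fell in the WiNTRLINC1 line, and 8 rose and 3 fell in the ASCL2 line. The median log2 fold change was -0.20 in the WiNTRLINC1 line and 0.15 in the ASCL2 line, beside 0.0072 and 0.0063 over all genes tested. ICAM1, an adhesion molecule for leukocytes, had 1339 and 1356 with doxycycline against 933 and 945 untreated in the WiNTRLINC1 line, and 2443 and 2742 with doxycycline against 1296 and 1369 untreated in the ASCL2 line. It rose by 0.52 ± 0.083 in the WiNTRLINC1 line (limma, adjusted p = 0.000432) and by 0.96 ± 0.083 in the ASCL2 line (adjusted p = 1.17e-06). IL32, an inflammatory cytokine, rose by 0.44 ± 0.077 in the WiNTRLINC1 line (adjusted p = 0.000864, or 0.051 without the trend) and by 0.70 ± 0.077 in the ASCL2 line (adjusted p = 1.06e-05). PIGR, the epithelial transporter of IgA, fell in the ASCL2 line, with 44 and 47 with doxycycline against 58 and 76 untreated (log2 -0.54 ± 0.11, adjusted p = 0.00161). The PIGR call was lost with only the libraries compared (adjusted p = 0.148) and without the trend (adjusted p = 0.0559). In the WiNTRLINC1 line PIGR had 36117 and 36382 with doxycycline against 33889 and 33910 untreated (log2 0.10, adjusted p = 0.607). Over all 7 lists, 23.4% of 94 tested genes were called in the WiNTRLINC1 line and 39.4% in the ASCL2 line, beside 18.6% and 26.6% of all genes tested. Between the untreated lines 50.0% of the 94 were called, beside 55.2%, and for the difference of responses 22.3%, beside 15.0%.

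**Figure D4:**
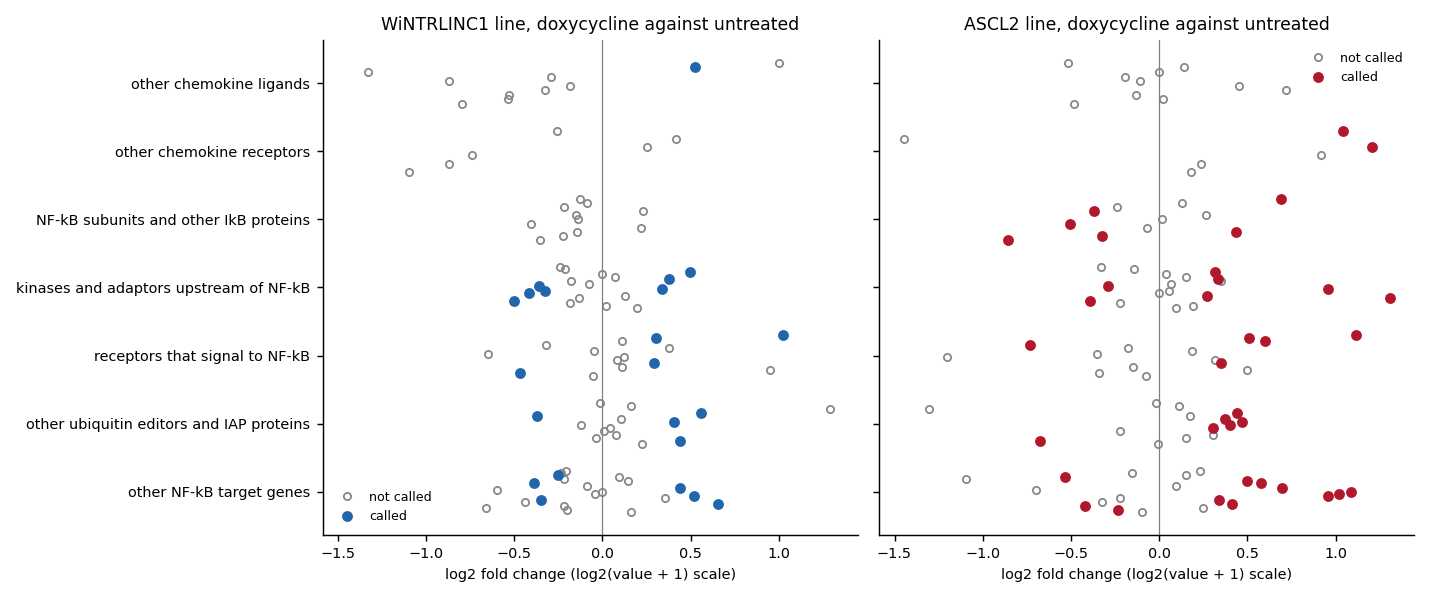
Log2 fold changes for doxycycline against untreated (x axis, log2(value + 1) scale) of the tested genes in 7 related lists (y axis) in the WiNTRLINC1 line (left) and the ASCL2 line (right); filled points were called and open ones not. Called genes lie on both sides of 0 in both lines, with 13 higher and 9 lower in the WiNTRLINC1 line and 26 higher and 11 lower in the ASCL2 line.

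The members did not all follow 1 pattern over the 8 libraries, as the root mean square difference of their log2 values, each centred on its own mean, shows. CXCL1 was nearest to CXCL8 among the members (0.637) and farthest from BIRC3 (2.08), and CXCL2 was nearest to CXCL3 (0.454). TNFAIP3 and BIRC3 were nearest to each other (0.452). The nearest member lay at 0.502 for NKIRAS1 (CXCL2), at 0.640 for NFKBIA (CXCL3) and at 0.715 for CCL20 (CXCL2). Among all tested genes whose mean value reached 100, the 5 most like CXCL1 were MUCL3 (0.441), HMOX1 (0.477), PRSS22 (0.478), SNHG25 (0.481) and MALL (0.503). The 5 most like CXCL2 were CLDN2 (0.132), AGPAT5 (0.221), GPR137B (0.279), EREG (0.294) and MAP3K14 (0.311). For CCR2 they were DUSP5 (0.126), LINC00520 (0.19), EREG (0.263), NRP1 (0.318) and OSTM1 (0.342). EREG was thus among the 5 nearest genes of CXCL2 and CCR2, and also of CCL20 (0.648), whose other nearest genes are not listed here. For NKIRAS1 the nearest were TMSB4XP8 (0.147), ST3GAL1 (0.168), F3 (0.175), PLAUR (0.184) and MPZL3 (0.193). All these likenesses rest on the same 8 libraries, of which 4 groups of 2 are near repeats, and are a description only.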

How the data were processed

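The mRNA of LS174T derivatives was sequenced on the Ion Proton, per the labels' protocols. The tools listed, per the submitters' processing notes, are TopHat2 2.0.9, DESeq, cutadapt and Cufflinks, and the listed builds, whose roles are not stated, are GRCh37, hg19 and mm9. How reads were counted, and whether by strand, is not given in the sources used here. Each score deposited by the authors for a gene is a whole number that behaves as a read count scaled per library and rounded: in 7 of 8 libraries some low whole numbers are never or too often used, with estimated scaling factors of 0.798 to 1.19. No count model was therefore used.

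Values were joined by Ensembl identifier, and 51959 of 57736 matched a symbol. The log2(value + 1) of the 22100 genes with at least 10 in at least 2 libraries was fitted for all 8 libraries and 4 groups with limma 3.58.1 in R 4.3.3, with a mean-variance trend (4 residual and 10.5 prior degrees of freedom) and Benjamini-Hochberg adjustment. A fold change on this scale understates the change of low genes. Replicates differed by more than sampling noise (chi-square per degree of freedom 5.06 to 7.26), so none was counted as a repeat deposit. The fit was tested on simulated data. GENCODE 29 gave overlaps, exon lengths and gene order, and RefSeq (GRCh38.p14) the promoters, in which all 10 members were found. No coordinates were taken from GENCODE, because the deposited files give none and its build differs.

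Members and gene lists were chosen with earlier results of these data known. The named genes were the 10 members, the up to 2 genes of each related list with the smallest adjusted p in each doxycycline comparison and the 1 with the smallest between the untreated lines, ASCL2, genes that overlap or closely resemble a member, and the 5 genes most like a member described beside CXCL1, and 1 gene so chosen is not reported here. Motifs, sequence windows and chromosome neighbours were chosen after the sequences and values had been seen. Alternatives were other scalings (median ratio, quantile), pseudocounts (0.5, 10), filters (none, at least 50), no trend, only the libraries compared, a replicate block and each library left out.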

Additional observations from a re-analysis of the deposited data

Results flagged for a closer look

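For CCL20 both treated libraries lay below both untreated ones in the WiNTRLINC1 line (log2 -1.27) and above them in the ASCL2 line (log2 2.88), and no p is given for this difference, because the list was drawn up from such responses.

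Among the 23 genes chosen from the related lists, the responses of the lines differed for 9 by the interaction test in limma. Of all genes tested, 15.0% were called for this difference. The 23 were chosen by their adjusted p in comparisons of these same libraries, so the p-values below are not independent of that choice. The log2 difference, WiNTRLINC1 line minus ASCL2 line, was -1.44 for MAP3K14 (adjusted p = 4.82e-05) and 1.12 for BIRC5 (adjusted p = 1.45e-05). It was -1.30 for CCRL2 (adjusted p = 0.000804) and 0.63 for PIGR (adjusted p = 0.00933), the PIGR value resting on 44 to 76 deposited counts in the ASCL2 line and its call being lost without the filter (adjusted p = 0.106) or the trend (adjusted p = 0.13). It was -0.48 for TNFRSF11A (adjusted p = 0.0121), a call lost without doxycycline replicate 1 of the ASCL2 line (-0.46) or of the WiNTRLINC1 line (-0.45), or without the trend. It was -0.62 for RIPK2 (adjusted p = 0.014), a call lost without doxycycline replicate 1 (-0.61), doxycycline replicate 2 (-0.63) or untreated replicate 1 (-0.50) of the ASCL2 line, or without the trend. The other 3 were -0.44 for ICAM1 (adjusted p = 0.02), -0.42 for MYD88 (adjusted p = 0.0227) and 0.38 for CXCL16 (adjusted p = 0.0424). Leaving out single libraries ended the ICAM1 call in 5 cases (adjusted p up to 0.113), the MYD88 call in 5 (up to 0.106) and the CXCL16 call in all 8 (up to 0.111), and leaving out the filter or the trend ended all 3, as quantile normalization did for CXCL16.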

How the results depend on the processing

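Without a filter on low values the genes called numbered 2395 in the WiNTRLINC1 line (4104 as reported) and 1914 for the difference of responses (3314). Without the mean-variance trend they numbered 1873 in the WiNTRLINC1 line, 3410 in the ASCL2 line (5884) and 1313 for the difference. Leaving out each library gave 2398 to 4131 in the WiNTRLINC1 line and 3665 to 5862 in the ASCL2 line. Of the 10 members, 2 were called in the WiNTRLINC1 line without the filter and 2 without the trend (4 as reported), and 1 to 4 with a library left out. In the ASCL2 line 7 members were called without the filter and 7 without the trend (9 as reported). For the difference of responses 5 members were called without the trend (6 as reported). Over the 7 related lists, no trend gave 8 genes in the WiNTRLINC1 line (22), 21 in the ASCL2 line (37) and 6 for the difference (21), and no filter gave 11 for the difference. Leaving out each library gave 10 to 21, 23 to 39 and 10 to 15 in the same order. A library left alone in its group was assumed to vary like the other groups. Of 670 values of the members' fold changes under alternatives, 640 stayed on the same side of the threshold, 11 of these being uncalled values of opposite sign, 29 kept direction and lost the call, 1 gained it and 0 of the called values reversed. Of 1524 for the 23 genes chosen from the related lists, 1436 stayed on the same side, 11 of them uncalled and of opposite sign, 78 lost and 10 gained a call, and 0 of the called values reversed. The fit on only the libraries compared could not be run for the difference of responses.

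The labels do not say whether the replicate numbers pair the samples, and the correlations do not settle it. Between treated and untreated groups, replicate deviations correlated over 13215 genes at r = 0.302 in the WiNTRLINC1 line and -0.143 in the ASCL2 line. Between the lines, r was 0.128 for the untreated groups and -0.00827 for the treated ones. With the replicate block, 4182 genes were called in the WiNTRLINC1 line, 5962 in the ASCL2 line, 3403 for the difference and 12261 (12203) between the untreated lines. Members called numbered 4, 9, 6 and 6 in the same order, and genes of the related lists 22, 38, 21 and 47. Values near 10 to 50, as for CCL20, CXCL2 and CXCL8 in most libraries, also limit the precision.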
